A study of Mus musculus with 8 samples.

Results

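The genes described here encode the subunits of the transcription factor NF-kB and the proteins that restrain it: Nfkb1, Nfkb2, Rel, Rela and Relb, the inhibitors of the IkB family Nfkbia, Nfkbie, Nfkbid and Nfkbiz, and Tnfaip3. They were chosen by name, and a probe was assigned to a gene where the RefSeq transcript given for it in the array files belongs to that gene. This gave 12 probes for all 10 genes, of 55681 probes and 20145 gene symbols on the array, and 9 of the 10 genes passed the filter on dim probes. Rel did not, because its probe was not well above background on any array.

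Their transcripts were measured on 8 Agilent 1-colour arrays in 4 groups of 2: LSK and GMP cells of wild-type mice, and the same cells of mice deficient in ACKR1, a chemokine-binding receptor of the atypical class, which does not signal through G proteins. Per the labels, all mice were female and 12 weeks old, came from a deficient line backcrossed to C57Bl/6J and bred as heterozygotes, and the wild-type controls were littermates. LSK cells were sorted from bone marrow as lineage-negative, Sca1-positive and cKit-positive, a gate that holds stem cells and multipotent progenitors. GMP cells, the progenitors of granulocytes and macrophages, were sorted as lineage-negative, Sca1-negative and cKit-positive with CD34 and CD16/32. The labels name no Cre and no restriction by cell type, so the deficiency is not limited to the sorted cells. They do not say whether the arrays of a group come from separate animals, and a p-value then reflects no more than the variation among these samples, part of which may be technical.

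NF-kB proteins share a Rel homology domain, through which they pair and bind DNA. In resting cells the dimers are held in the cytoplasm by IkB proteins, and a signal from receptors of tumour necrosis factor, interleukin-1 or microbial products leads IkB kinase to mark the inhibitor for destruction, so that the dimer enters the nucleus. Nfkbia and Tnfaip3 are themselves textbook targets of NF-kB and close a negative feedback loop. In blood formation the pathway is known for its part in inflammatory output of myeloid cells and in the maintenance of stem cells.

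The start regions of these genes were searched for the kappa B consensus, the site of 10 bases that NF-kB dimers recognise. RefSeq promoters (GRCm38.p6, 250 bases before to 50 bases after a start) existed for 7 of the 10 genes, with 12 starts in all. The consensus, searched on both strands, was present in 8 of the 12 promoters and in 6 of the 7 genes, Rela being the exception, while 4.51% of all 32851 promoters in the table held it. The looser form GGGNNNNNCC, which overlaps the consensus, was present in 12 of 12 promoters and in 50.8% of all of them. The 250 bases before the start are shown for 4 of the 6 genes with a match. They read 5′ to 3′ on the strand of the gene, with consensus matches in capitals (overlapping matches run together). They are chr12:55492648-55492897 on the minus strand for Nfkbia, chr17:45555450-45555699 on the plus strand for Nfkbie, chr10:19015411-19015660 on the minus strand for Tnfaip3, and chr19:46304487-46304736 on the plus strand for Nfkb2.
Nfkbia: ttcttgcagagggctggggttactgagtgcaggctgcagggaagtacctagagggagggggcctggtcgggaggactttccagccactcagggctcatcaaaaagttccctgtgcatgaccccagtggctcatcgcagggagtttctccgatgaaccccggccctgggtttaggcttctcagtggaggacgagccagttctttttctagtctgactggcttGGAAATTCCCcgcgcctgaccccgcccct
Nfkbie: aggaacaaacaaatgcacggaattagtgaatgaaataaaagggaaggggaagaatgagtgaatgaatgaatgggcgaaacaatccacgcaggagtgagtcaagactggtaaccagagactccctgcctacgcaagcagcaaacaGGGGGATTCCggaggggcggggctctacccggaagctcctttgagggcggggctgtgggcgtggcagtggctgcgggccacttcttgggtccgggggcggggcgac
Tnfaip3: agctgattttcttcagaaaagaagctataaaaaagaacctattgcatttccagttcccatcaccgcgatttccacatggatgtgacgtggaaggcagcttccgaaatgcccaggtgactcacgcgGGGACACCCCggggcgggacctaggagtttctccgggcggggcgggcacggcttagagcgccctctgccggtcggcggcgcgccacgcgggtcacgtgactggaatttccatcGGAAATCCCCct
Nfkb2: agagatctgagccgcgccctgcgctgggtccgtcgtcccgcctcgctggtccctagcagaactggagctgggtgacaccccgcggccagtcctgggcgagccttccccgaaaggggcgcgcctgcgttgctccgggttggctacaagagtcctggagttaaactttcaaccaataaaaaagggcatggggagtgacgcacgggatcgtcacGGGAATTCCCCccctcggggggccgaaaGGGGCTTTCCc

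The match in Nfkbia begins 29 bases before the start and the one in Nfkbie 106 bases before it. Tnfaip3 has matches that begin 125 and 12 bases before its start, and Nfkb2 has the palindrome GGGAATTCCC 39 bases before and GGGGCTTTCC 11 bases before its first start. Nfkbid carries matches only at the second of its 3 starts, GGGACTTCCC at chr7:30422180-30422189 and GGAATTCCCC at chr7:30422225-30422234, and Rel carries GGGAAATCCC 92 bases before its start. A match describes the letters in the window and not binding, which these arrays did not measure.

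Levels below are log2 signal minus the same array's 75th percentile, differences are on that log2 scale, and n is 2 arrays per group. Signal differed between arrays. On 7 arrays 62.5% to 73.1% of spots were well above background, against 34.3% on deficient LSK replicate 2, which correlated with the others at r of 0.690 to 0.784 across features. Deficient GMP replicate 1 had r of 0.898 with its own replicate, against 0.976 for the wild-type GMP pair. All arrays lay on 1 slide, where column 1 held the deficient and column 2 the wild-type samples, and a column effect and genotype cannot be told apart.

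The labelled cell types were set against their markers. All 8 LSK markers were well above background on both wild-type LSK arrays and 5 of 8 on both deficient ones, and all 8 GMP markers were so on every GMP array. Detection did not separate the populations, since 7 of 8 LSK markers were well above background on both arrays of each GMP group and all 8 GMP markers on both wild-type LSK arrays. The summed level of the GMP markers was 6.66 to 7.79 in LSK and 10.8 to 11.5 in GMP, whereas that of the LSK markers was 8.08 to 8.41 in wild-type and 7.11 to 7.51 in deficient LSK, and 6.77 to 7.11 and 6.88 to 7.94 in GMP, so that it overlapped in deficient cells. Ly6a, which encodes Sca1, was also well above background on all GMP arrays, at 2.83 and 3.11 in wild type and −0.17 and 2.24 in deficient GMP, although that gate is Sca1-negative. In LSK it read 1.83 and 3.79 in wild type and 0.37 and −1.07 in deficient cells. Markers of mature cells differed with genotype. The summed level of 12 mature neutrophil markers, all of them measured, was 2.28 to 3.60 in wild-type and 10.4 to 11.7 in deficient LSK, and 4.27 to 5.01 in wild-type and 10.3 to 11.7 in deficient GMP. On both arrays of a group 8, 11, 8 and 12 of the 12 were well above background, in the same order, and Itgb2l on no wild-type array. The summed level of 7 of 8 red cell markers was 2.88 to 5.45 and 10.4 to 13.0 in LSK, and 1.94 to 3.26 and 10.1 to 11.4 in GMP, with 3, 6, 3 and 7 of them well above background on both arrays and Epb42 on no wild-type array. The part of these markers and of the weak array in the values below was not tested. In such mixed samples, fewer cells that express a gene and less of its RNA per cell cannot be told apart.

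The first question was whether NF-kB subunits and inhibitors differed between ACKR1-deficient and wild-type progenitors. None of the 9 genes measured passed the test in LSK, in GMP or in the average of both, yet nearly every one of them had a lower mean in deficient cells. Nfkbid, a nuclear IkB protein, had the lowest unadjusted p in LSK and in the average, and its averaged level was 3.82-fold lower in deficient cells. Rela, Relb, Nfkbia, Nfkbid and Nfkbiz had both deficient arrays below both wild-type arrays in LSK and again in GMP.

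In LSK 0 of 9 genes were called (limma, adjusted p between 0.481 and 0.912), beside 67 of 28098 features or 0.238%, and 1 of 9 had an unadjusted p under 0.05, beside 8.84%. In GMP 0 of 9 were called (adjusted p between 0.909 and 1.00), beside 0.146% of features, and 3 of 9 had an unadjusted p under 0.05, beside 4.82%. In the average of both populations 0 of 9 were called (adjusted p between 0.240 and 0.915), beside 0.601%, and 1 of 9 had an unadjusted p under 0.05, beside 12.2%. The differences were below 0 for 9 of 9 genes in LSK, 8 of 9 in GMP and 8 of 9 in the average, where 46.5%, 40.6% and 41.5% of all features were below 0. Their median was −1.05 in LSK, −0.91 in GMP and −1.02 in the average, against all-feature medians of 0.12, 0.16 and 0.17. Both deficient arrays lay below both wild-type arrays for 6 of 9 genes in LSK and 7 of 9 in GMP, beside 21.1% and 19.5% of features, and above them for 0 of 9 in either, beside 16.5% and 20.1%. This held in both populations for 5 of 9, beside 7.34%.

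With 2 arrays a group, moderate differences could not be told from 0. The 95% confidence interval of a difference reached 1.55 to 2.37 to either side in LSK and in GMP, and 1.09 to 1.68 in the average. Under other scalings of the arrays the all-feature median of the averaged difference lay between −0.27 and 0.33. Relative to it, the median of the 9 genes was −1.18 in the main fit, −1.33 after normexp correction and −1.16 after quantile normalization. Median scaling and the authors' values shift each array by a constant, so the relative value of −1.18 could not change there. With both arrays that stood apart, deficient LSK replicate 2 and deficient GMP replicate 1, left out, the median of the 9 genes was nearer 0, at −0.47 relative to all features. There 8 of 9 genes were below 0. The all-feature median was itself −0.078, and 8 of 9 genes were below it.

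**Figure D1:**
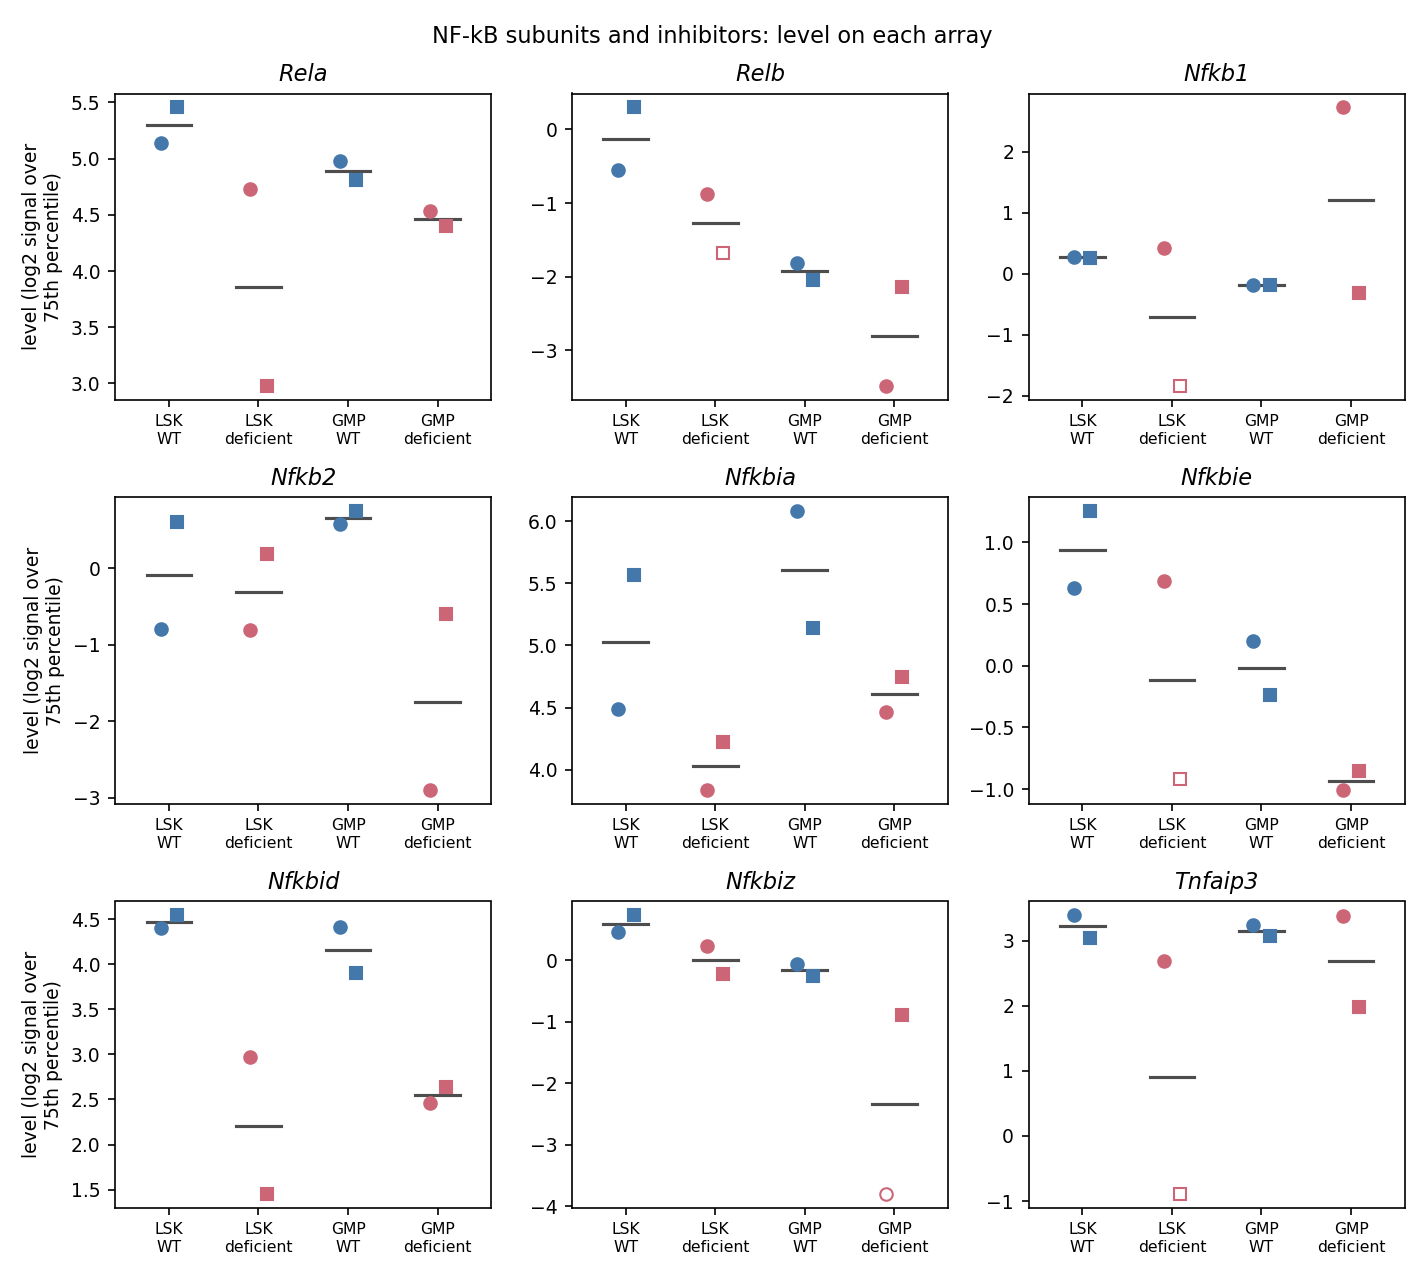
Level of 9 NF-kB genes on each of the 8 arrays (log2 signal minus the array's 75th percentile; each panel has its own axis), with wild type in blue and deficient in red, replicate 1 as circles and replicate 2 as squares. Bars are group means of 2 arrays and open symbols are spots not well above background. Both deficient arrays of Nfkbid lie below both wild-type arrays in LSK and in GMP, while in Tnfaip3 the array at −0.89 is the weak deficient LSK replicate 2.

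Among the subunits, Rela encodes p65, the strong transactivator of the canonical dimer. It read 5.14 and 5.46 in wild-type and 4.73 and 2.98 in deficient LSK, and 4.98 and 4.81 in wild-type and 4.53 and 4.40 in deficient GMP. The wild-type LSK arrays were the highest and did not overlap with wild-type GMP, which in turn did not overlap with deficient GMP, whereas the deficient LSK arrays lay on either side of deficient GMP. The difference was −1.45 in LSK (SE 0.726, limma, adjusted p = 0.550) and −0.43 in GMP, and the LSK value was −0.57 without the weak array.

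Relb pairs with the Nfkb2 product in the non-canonical pathway. At its brighter probe it read −0.55 and 0.30 in wild-type and −0.87 and −1.68 in deficient LSK, and −1.81 and −2.05 in wild-type and −3.49 and −2.14 in deficient GMP. The 4 groups followed each other without overlap, from wild-type LSK down through deficient LSK and wild-type GMP to deficient GMP, although deficient LSK replicate 2 was not well above background. The genotype difference was −1.15 in LSK (SE 0.727, limma, adjusted p = 0.576), and the GMP value was −0.88 (adjusted p = 0.958). It was −0.21 without deficient GMP replicate 1, and the LSK value −0.75 without deficient LSK replicate 2.

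Nfkb2 encodes the precursor p100, which is both an inhibitor and the source of the subunit p52. Its levels were −0.79 and 0.60 in wild-type and −0.81 and 0.19 in deficient LSK, which overlapped. In GMP they were 0.58 and 0.75 in wild type, close together, and −2.89 and −0.60 in deficient cells, both lower. The GMP difference of −2.41 had the smallest unadjusted p of the genes in that population (SE 0.886) and was not called (limma, adjusted p = 0.909). It was −1.26 without deficient GMP replicate 1, whereas the LSK difference was −0.22.

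Nfkb1 encodes the precursor p105 and its product p50, and its probes disagreed. The brighter probe, printed in 2 spots on each array, read 0.28 and 0.26 in wild-type and 0.42 and −1.84 in deficient LSK, with −0.19 on both wild-type GMP arrays and 2.72 and −0.32 in deficient GMP. The high reading in deficient GMP replicate 1 was present in both of its spots, at 2.50 and 2.95, and the low reading in deficient LSK replicate 2 was not well above background. At the other probe deficient GMP replicate 1 was the lowest array at −3.28, and deficient LSK was higher than wild type, at 0.38 and 1.04 against −0.10 and −0.36. The genotype difference in LSK was thus −0.98 at the brighter probe and 0.94 at the other, and in GMP 1.39 and −0.77 (limma, adjusted p between 0.684 and 1.00). No direction for Nfkb1 held across both probes.

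Rel encodes c-Rel, the subunit best known from lymphoid cells. Its probe read −5.21 and −6.63 in wild-type and −5.90 and −3.16 in deficient LSK, and −5.30 and −6.83 in wild-type and −4.80 and −6.98 in deficient GMP. It was well above background on 0 of 8 arrays, so these readings give no order and no fold change is stated.

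**Figure D2:**
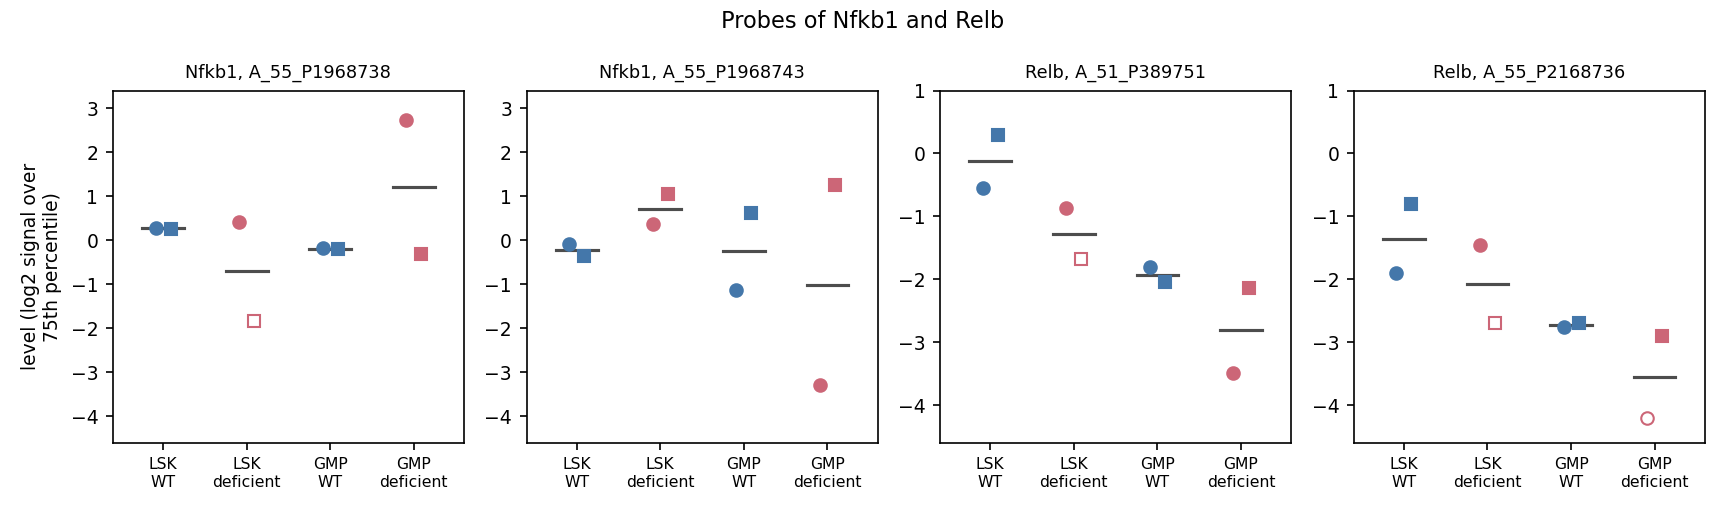
Levels of both probes of Nfkb1 and of both probes of Relb on the 8 arrays (log2 signal over the 75th percentile; symbols and bars as for the plot of levels by gene, with 1 axis per gene). Deficient GMP replicate 1 is the highest array at one Nfkb1 probe (2.72) and the lowest at the other (−3.28). The group means of Relb keep the same order at both probes, although groups overlap at the second.

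The second probe of Relb gave the same order of group means. It read −1.91 and −0.81 in wild-type and −1.45 and −2.69 in deficient LSK, and −2.76 and −2.69 in wild-type and −4.20 and −2.90 in deficient GMP, and the lowest array of each deficient group was not well above background. Its LSK groups overlapped. So did deficient LSK and wild-type GMP, at −2.695 in replicate 2 of the former against −2.690 in replicate 2 of the latter. The averaged genotype difference was −0.77 (limma, adjusted p = 0.583) there and −1.02 (adjusted p = 0.446) at the brighter probe.

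Of the inhibitors, Nfkbia encodes IkB alpha, which retains the canonical dimer and is resynthesised soon after activation. It read 4.49 and 5.56 in wild-type and 3.84 and 4.22 in deficient LSK, and 6.08 and 5.14 in wild-type and 4.46 and 4.75 in deficient GMP. In each population both deficient arrays were below both wild-type ones, and the wild-type groups overlapped with each other. The differences were almost equal, at −0.99 in LSK and −1.0 in GMP, and their average of −1.0 (SE 0.489, 95% interval −2.09 to 0.095) corresponds to 2.0-fold. The test did not call it (limma, adjusted p = 0.439). Nfkbia differed by −1.19 in LSK and −0.86 in GMP when both arrays that stood apart were left out.

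Nfkbie encodes IkB epsilon, a slower inhibitor of the same dimers. It read 0.63 and 1.25 in wild-type and 0.69 and −0.92 in deficient LSK, which overlapped, and 0.20 and −0.24 in wild-type and −1.01 and −0.85 in deficient GMP, which did not. The lowest LSK reading belonged to the weak array and was not well above background. The difference was −1.05 in LSK (SE 0.725, limma, adjusted p = 0.590) and −0.25 without that array, and −0.91 in GMP.

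Nfkbid encodes the nuclear protein IkB NS, which acts on p50 at chromatin and not in the cytoplasm. It read 4.40 and 4.54 in wild-type and 2.97 and 1.45 in deficient LSK, and 4.41 and 3.91 in wild-type and 2.46 and 2.64 in deficient GMP. The wild-type groups overlapped with each other, as did the deficient groups, and the highest deficient array, at 2.97, was below the lowest wild-type array, at 3.91. The difference was −2.26 in LSK (SE 0.704, 95% interval −3.83 to −0.69, limma, adjusted p = 0.481), and −1.61 was its size in GMP (adjusted p = 0.956). The average was −1.93 (SE 0.497, 95% interval −3.04 to −0.82) and was not called over all features (limma, adjusted p = 0.240). Without both arrays that stood apart it was −1.51, with −1.50 in LSK and −1.52 in GMP. Over the alternatives it lay between −2.36 and −1.51. Leaving out arrays could not turn its sign, because every deficient array was below every wild-type one.

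Nfkbiz encodes IkB zeta, a nuclear IkB protein that helps to induce secondary response genes such as Il6. It read 0.47 and 0.73 in wild-type and 0.23 and −0.21 in deficient LSK, and −0.06 and −0.25 in wild-type and −3.80 and −0.88 in deficient GMP. The deficient arrays were below wild type in each population, by little in LSK, and the reading of −3.80 was not well above background. The GMP difference was −2.19 (SE 0.901, limma, adjusted p = 0.956) and became −0.73 without deficient GMP replicate 1, while the LSK difference was −0.59.

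Tnfaip3 encodes A20, an enzyme that edits ubiquitin chains and shuts off signalling upstream of IkB kinase. It read 3.39 and 3.05 in wild-type and 2.69 and −0.89 in deficient LSK, and 3.24 and 3.07 in wild-type and 3.37 and 1.99 in deficient GMP. The LSK groups did not overlap and the GMP groups did. The LSK difference was −2.32 (SE 1.06, 95% interval −4.69 to 0.051, limma, adjusted p = 0.550), and it was −0.53 without deficient LSK replicate 2, whose spot was not well above background. In GMP it was −0.47.

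**Figure D3:**
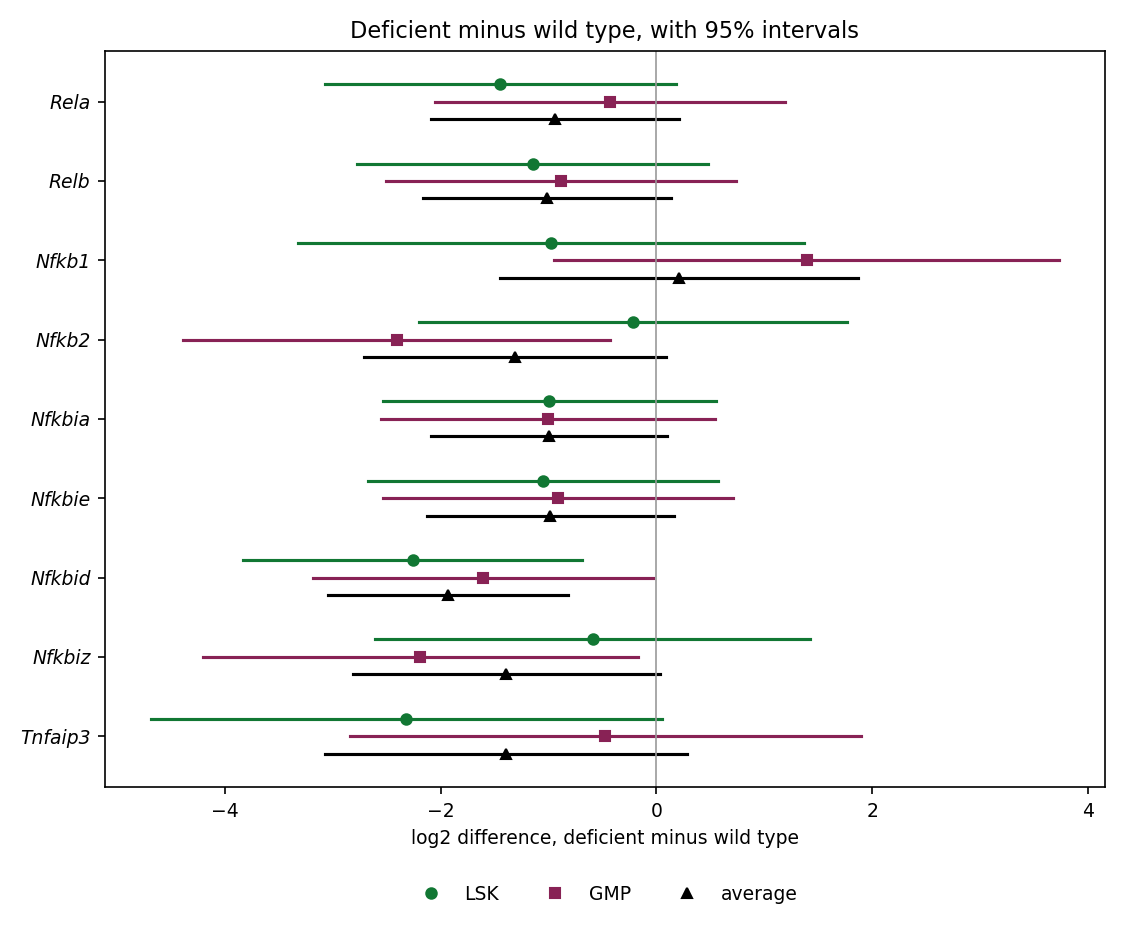
Difference between deficient and wild-type cells of 9 NF-kB genes (log2, x axis) in each population and as their average, with 95% confidence intervals from limma over 8 arrays. The interval of Nfkbid lies below 0 in all 3 comparisons and those of Nfkb2 and Nfkbiz in GMP, before adjustment over all features.

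**Figure D4:**
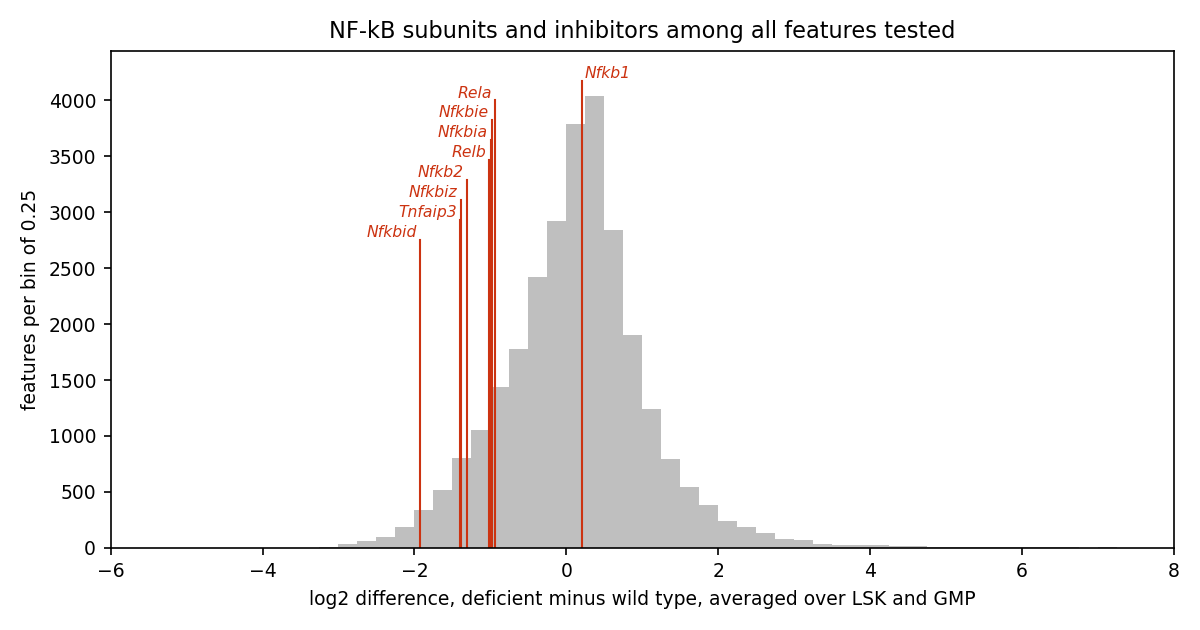
Histogram of the averaged genotype difference of all 28098 features tested (log2, bins of 0.25), with red lines at the 9 NF-kB genes. Nfkb1 is at 0.21, near the all-feature median of 0.17, and the other 8 lie between −0.94 and −1.93.

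Whether the genotype difference was unequal in the 2 populations was tested by itself. In this contrast 0 of 9 genes were called (limma, adjusted p between 0.961 and 0.999) and 0 had an unadjusted p under 0.05, beside 0% of features called and 2.47% at an unadjusted p under 0.05, which are 694 features. The effect in GMP minus that in LSK was −2.19 for Nfkb2, 2.37 for Nfkb1 and −1.60 for Nfkbiz, each with an adjusted p of 0.961 (limma). At the other end, Nfkbia had −0.011, with a 95% interval from −2.20 to 2.18, which is wide enough to hold a difference of the size of the genotype effect itself.

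The second question was how the same genes differ between GMP and LSK. Relb read lower in GMP than in LSK in both genotypes, without overlap of the arrays and at both of its probes. Nfkbiz did so too, and Nfkbie and Rela in wild type, whereas the wild-type LSK and GMP arrays of Nfkbid, Nfkbia, Nfkb2 and Tnfaip3 overlapped. None of the 9 genes passed the test.

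In wild type 0 of 9 genes were called (limma, adjusted p between 0.490 and 1.00), beside 1.86% of features, and 1 of 9 had an unadjusted p under 0.05, beside 8.4%. Both GMP arrays lay below both LSK arrays for 5 of 9 genes, Relb, Nfkbie, Nfkbiz, Nfkb1 and Rela, beside 20.2% of features, and above them for 0 of 9, beside 28.2%. For Nfkb1 this held at its brighter probe only. At its other probe wild-type GMP read −1.12 and 0.62 against −0.10 and −0.36 in wild-type LSK, a difference of −0.02. In deficient cells 0 of 9 were called (adjusted p between 0.249 and 0.821), beside 0%, although 4700 features or 16.7% had an unadjusted p under 0.05. Groups did not overlap there for Relb and Nfkbiz, lower in GMP beside 18.6% of features, and for Nfkbia, higher beside 18.4%. Averaged over genotypes 0 of 9 were called (adjusted p between 0.115 and 0.990), beside 3.45%, and Relb and Nfkbiz had an unadjusted p under 0.05, beside 19.8%. The wild-type and deficient comparisons do not share arrays, but each shares arrays with the genotype comparisons above.

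The difference of Relb, GMP minus LSK, was −1.80 in wild type (SE 0.727, 95% interval −3.43 to −0.18, limma, adjusted p = 0.490) and −1.54 in deficient cells (adjusted p = 0.320). The average was −1.67 (SE 0.514, 95% interval −2.82 to −0.52, adjusted p = 0.115), a level 3.18-fold lower in GMP. The second probe gave −1.37, −1.48 and −1.42. With array weights in the fit, the wild-type difference of Relb was called (limma, adjusted p = 0.0348), beside 2218 of 28098 features. These weights were equal within each group, from 0.316 for both deficient LSK arrays to 3.98 for both wild-type GMP arrays. They therefore did not set the weak array apart from its replicate and left the difference itself unchanged.

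Nfkbiz differed by −0.75 in wild type, −2.35 in deficient cells (SE 0.901, limma, adjusted p = 0.249) and −1.55 on average (adjusted p = 0.218). Its deficient value was −0.89 without deficient GMP replicate 1. Nfkbie differed by −0.96 in wild type and −0.89 on average (adjusted p = 0.374). Nfkbia pointed the other way, with 0.59 in wild type, where the groups overlapped, and 0.57 in deficient cells (adjusted p = 0.689), and turned to −0.44 in deficient cells under quantile normalization. The remaining averages were 0.86 for Tnfaip3, 0.73 for Nfkb1, −0.34 for Nfkb2, 0.10 for Rela and 0.015 for Nfkbid, and each of these 5 changed sign when both arrays that stood apart were left out.

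**Figure D5:**
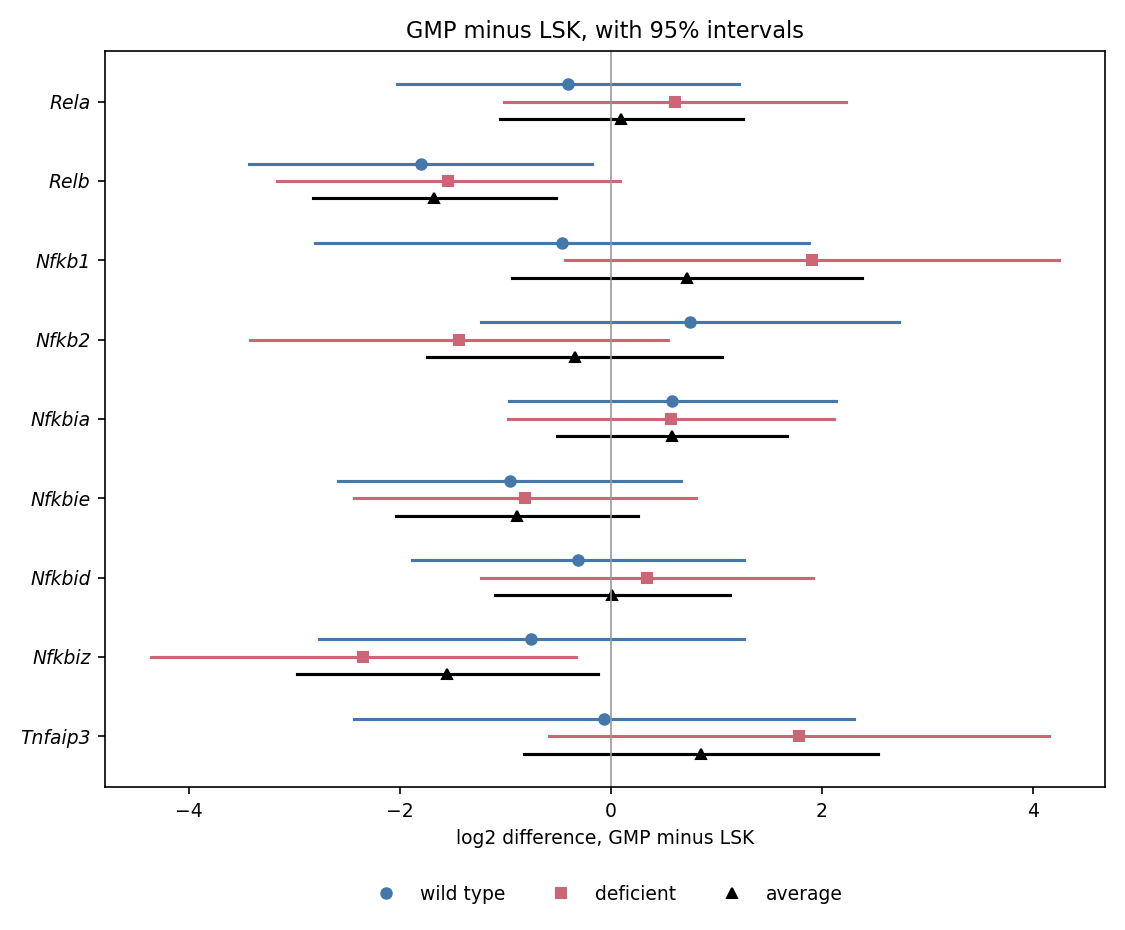
Difference between GMP and LSK of 9 NF-kB genes (log2, x axis) in wild type, in deficient cells and averaged over genotypes, with 95% confidence intervals from limma over 8 arrays. The averaged interval of Relb runs from −2.82 to −0.52 and that of Nfkbiz from −2.97 to −0.12, and the other 7 include 0.

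The rest of the pathway was described through 92 further genes in 6 lists by role, of which 86 were tested. Between genotypes 0 of 86 passed the test in LSK, in GMP and in the average (limma), beside 0.238%, 0.146% and 0.601% of all features, and 8, 10 and 17 had an unadjusted p under 0.05, beside 8.84%, 4.82% and 12.2%. Their median difference was −0.60 in LSK, −0.38 in GMP and −0.32 in the average, and 58, 50 and 55 of 86 were below 0, beside 46.5%, 40.6% and 41.5%. Without both arrays that stood apart, the averaged median was −0.19, or −0.12 relative to all features.

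Upstream, the adaptors and ubiquitin ligases that join receptors to IkB kinase had a median of −0.77 in the average, with 19 of 22 below 0. The lowest p in this list belonged to Bcl10, which links antigen receptors to the pathway, with −2.27 (SE 0.801, limma, adjusted p = 0.369). It read −3.13 on the weak deficient LSK replicate 2, where it was not well above background, and its average was −1.30 without that array. The 11 kinases had a median of −0.61, with Map3k14, the NF-kB inducing kinase of the non-canonical arm, at −1.83 (adjusted p = 0.389), or −0.48 without both arrays that stood apart. The 16 receptors and ligands tested had a median of 0.31, and the ligand Il1b, interleukin-1 beta, had the lowest p, with 4.12 (SE 0.808, adjusted p = 0.0779), and was called after normexp correction (2.82, adjusted p = 0.0198). Il1b read −5.36 and −3.95 in wild-type and 1.07 and −1.92 in deficient LSK, and −3.21 and −3.54 in wild-type and 2.0 and −0.72 in deficient GMP, so that every deficient array was above every wild-type one, although deficient LSK replicate 2 was not well above background. The summed neutrophil markers differed in the same direction, and their part in this value was not tested.

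The 3 other IkB proteins had a median of −1.07 in the average, with Nfkbib, which encodes IkB beta, at −1.31 (limma, adjusted p = 0.384). The 12 other negative regulators had a median of −0.35. Among them Zc3h12a, the RNase that degrades cytokine transcripts, had −1.94 (SE 0.523, adjusted p = 0.263) and −0.56 after normexp correction, with −0.88 and −0.22 in wild-type and −2.0 and −2.94 in deficient LSK, and −1.36 and −2.10 in wild-type and −4.36 and −3.04 in deficient GMP. Its groups did not overlap in either population, and its lowest reading in each was not well above background. The 22 target genes tested had a median of −0.21, with 14 below 0, and Ccl3, a chemokine of myeloid cells, had the lowest p, with −2.17 (adjusted p = 0.350). Its average was −1.33 without the weak array, and it was called without the other deficient LSK array (−3.01, adjusted p = 0.0383).

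Between populations some of these genes did pass. In wild type 3 of 86 were called, all lower in GMP (beside 1.36% of features), and on average 2 were higher and 5 lower (beside 1.17% and 2.28%), while in deficient cells 0 were called and 16 had an unadjusted p under 0.05, beside 16.7%. Ltb, which encodes lymphotoxin beta, a ligand of the non-canonical pathway in which Relb acts, was lower in wild-type GMP by a difference of −6.12 (SE 0.647, limma, adjusted p = 0.00352). It read 3.87 and 4.27 in wild-type and 3.16 and 2.60 in deficient LSK, and −2.29 and −1.82 in wild-type and 1.56 and 0.93 in deficient GMP. The averaged difference was −3.88 (adjusted p = 0.00274) and was called under all 18 alternatives. The wild-type call was lost without either wild-type LSK array (adjusted p = 0.0508 and 0.0520).

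Tnfrsf13c, the receptor of the B cell survival factor BAFF, was 113-fold lower in wild-type GMP in the processed signal (limma, adjusted p = 0.00754). Neither wild-type GMP array read its probe as well above background, so the size of this difference is uncertain. After normexp correction, whose offset raises dim readings, it was 14.5-fold lower (adjusted p = 0.00668). It read 1.37 and 0.94 in wild-type LSK and −5.78 and −5.55 in wild-type GMP, and 1.77 and 0.84 against 0.25 and −2.63 in deficient cells. The wild-type call was lost under quantile normalization (adjusted p = 0.0547) and without either wild-type LSK array (0.0815 and 0.0718), and the averaged call (adjusted p = 0.00494) was kept under all 18 alternatives. Of the 6 B cell markers, Pax5 was well above background on no array, and Ms4a1 was on neither wild-type GMP array. Their summed level was 2.27 to 3.03 in wild-type and 1.81 to 2.96 in deficient LSK, and 3.49 to 3.76 and 2.51 to 3.45 in GMP, and its part in these differences was not tested.

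Averaged over genotypes, Tnip3, an A20-binding inhibitor, was lower in GMP by a difference of −3.04 (limma, adjusted p = 0.0235, kept under 9 of 18 alternatives), and Cd83, a surface protein of activated cells, by −2.44 (adjusted p = 0.0468, kept under 2 of 17). The chemokine gene Ccl2 was higher in GMP by 2.50 (adjusted p = 0.0152, kept under 12 of 18) and Il6, the interleukin-6 gene, by 3.71 (adjusted p = 0.0378, kept under 7 of 18). After normexp correction the values were 1.18 for Ccl2, 1.30 for Il6, −1.55 for Tnip3 and −1.39 for Cd83, and none of these was called. Il6 was 2.84 without deficient GMP replicate 1 (adjusted p = 0.0674). Cd83 was −1.17 under quantile normalization (adjusted p = 0.599). The summed level of monocyte and macrophage markers, 6 of 8 measured, was also higher in GMP, at 0.60 to 0.89 in wild-type and 2.19 to 3.27 in deficient LSK against 3.74 to 3.92 and 3.51 to 5.42 in GMP. Among them Ccr2 and Cx3cr1 were called (4.29 and 3.44, adjusted p = 0.00694 and 0.00502), and their part in the values of Ccl2 and Il6 was not tested.

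The features whose pattern over the 8 arrays was closest to that of 2 of the genes were named by the root mean square difference of levels, each centred on its own mean. Nearest to Nfkbia were Mark2 at 0.214, Sord at 0.215 and Coq10a at 0.215. Nearest to Tnfaip3 were Dmac2 at 0.266, Rnf19b at 0.277 and Cox15 at 0.279, and all 3 of these had their lowest reading, from −0.70 to −2.65, on the weak deficient LSK replicate 2, as Tnfaip3 did. The measure covers 8 arrays, the weak one included, and it is a description.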

How the data were processed

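RNA of sorted LSK and GMP cells was hybridised to 8 Agilent 1-colour arrays, labelled with Cy3 after low-input amplification per the labels' protocols. Per the file headers, Agilent Feature Extraction 10.7.3.1 read the arrays, annotated on genome build mm9, and the deposited processed signal is a background-corrected fluorescence intensity on a linear scale. The median foreground and background intensities in the same files, per the file headers, are uncorrected. The authors' deposited value table is on a log2 scale. Compared with the scanner signals, its columns were log2 signal over the 75th percentile, centred on each probe's median over arrays (r between 0.9996 and 0.9999), so scale, centring and direction are known, and its column medians ran from −0.27 to 1.25. No further step by the authors is given in the sources used here.

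The 75th percentile of each array was subtracted from its log2 processed signal. Control and outlier spots (104 to 139 per array, 0 saturated) were left out and spots of a probe averaged. A probe was kept if 1 group or more had it well above background on both arrays (39120 of 55681). Symbols came from the RefSeq table of GRCm38.p6, by transcript accession (26582 probes). A gene's probe with the highest mean stood for it, giving 28098 tested features (15870 with a symbol). Other probes of a gene are given in the text. With R 4.3.3, the linear model of limma 3.58.1, with its empirical Bayes step, was fitted to 4 group means over 8 arrays with 4 residual degrees of freedom, and calls required an adjusted p (Benjamini-Hochberg, over all features of the contrast) under 0.05. Files were read with data.table, version 1.17.8, and figures drawn with matplotlib 3.10.9 in Python 3.11.15. The fit was tested on simulated data. A fold against a group not well above background on either array is an estimate of uncertain size and not a bound. The number of arrays limits the precision.

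The genes, the lists and the alternatives were chosen with earlier results of these data known. All 10 genes are named. Of the other pathway genes, called ones are named (up to 5 per list and comparison), or the one with the smallest p where none was called; 1 called gene is not reported here. Nearest patterns are the 3 features with a symbol and the smallest root mean square difference. Alternatives were normexp background correction (offset 50), quantile or median scaling, no filter or a filter at 6 arrays, every probe as a feature, array weights, the replicate number as a block, the compared groups alone, each array left out, the authors' table, and, chosen after seeing the data, both arrays that stood apart left out.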

Additional observations from a re-analysis of the deposited data

Results flagged for a closer look

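Ltb, which encodes lymphotoxin beta, had a genotype difference of opposite direction in the 2 populations. Both deficient arrays were below both wild-type arrays in LSK (3.16 and 2.60 against 3.87 and 4.27) and above both in GMP (1.56 and 0.93 against −2.29 and −1.82). The effect in GMP minus that in LSK was 4.49 (SE 0.915) and was not called over all features (limma, adjusted p = 0.961), as none was in that contrast, where 694 features had an unadjusted p under 0.05. The probe was well above background on all 8 arrays.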

How the results depend on the processing

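With 2 arrays per group, calls rest on few values, and a group left with 1 array is assumed to vary like the others. The count of NF-kB genes called was 0 in every comparison and stayed 0 in 130 of 134 alternative fits. It was 1 between populations in wild type with array weights (Relb). When arrays were left out in turn it ranged from 0 to 3 for the genotype difference in LSK and from 0 to 1 between populations in deficient cells and on average. The 3 genes in LSK were Nfkbid, Rela and Tnfaip3 (limma, adjusted p = 0.0407, 0.0477 and 0.0403), called when deficient LSK replicate 1 was left out and the weak array stood for the group, with −3.01 for Nfkbid and −2.32 for Rela. The remaining spot of Tnfaip3 was not well above background, so no size is given. Without the same array Tnfaip3 was called between populations in deficient cells, and Nfkbiz was called on average without deficient GMP replicate 2 (adjusted p = 0.0493). The cause was not tested.

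Signs turned as follows. For the genotype difference of Nfkb1, the other probe gave 0.94 in LSK, −0.77 in GMP and −1.71 for the difference of the effects; leaving out both arrays that stood apart gave 0.15, −0.13 and −0.28; and in the average quantile normalization gave −0.13 and median scaling −0.22. Leaving out arrays in turn, Nfkb1 ranged from −2.11 to 0.15 in LSK, −0.13 to 2.91 in GMP and −0.55 to 0.97 on average, Nfkb2 in LSK from −0.91 to 0.48, and Tnfaip3 in GMP from −1.17 to 0.22. For GMP minus LSK averaged over genotypes, quantile normalization gave −0.29 for Nfkbia (−0.44 in deficient cells), −0.58 for Nfkbid and −0.81 for Rela, median scaling gave 0.13 for Nfkb2, and the other probe of Nfkb1 gave −0.87. Without both arrays that stood apart that average was −0.60 for Nfkb1, 0.48 for Nfkb2, −0.32 for Nfkbid, −0.37 for Rela and −0.38 for Tnfaip3. Leaving out arrays in turn, it ranged from −0.036 to 1.49, −0.92 to 0.23, −0.36 to 0.39, −0.33 to 0.54 and −0.036 to 1.75 for these genes in the same order.

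Counts over all features moved with the setting. From 67, 41 and 169 for the genotype difference in LSK, in GMP and on average, they ran from 0 to 2863, 2 to 36 and 70 to 211 with arrays left out in turn, and from 1 to 479, 0 to 193 and 40 to 905 otherwise. From 522, 0 and 968 between populations in wild type, in deficient cells and on average, they ran from 17 to 649, 0 to 4316 and 325 to 4119, and from 84 to 2218, 0 to 848 and 247 to 2043 otherwise. The average between populations split into 328 higher and 640 lower, 376 and 312 with median scaling, and 1087 and 400 with normexp correction.

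The replicate numbers share no stated origin. The deviations of same-numbered arrays correlated across features at r between −0.34 and 0.34, so the numbers were not taken to pair the samples. With the replicate block, 81, 69 and 164 features were called between genotypes in LSK, in GMP and on average, and 0 of the 9 genes in any comparison; with a block within each population, which is the slide row, 479, 193 and 905 features and 0 of the 9 genes. On weak arrays dim spots give no order, which limits Nfkb1, Relb, Nfkbie, Nfkbiz and Tnfaip3, each not well above background on 1 array.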
